A study of Mus musculus with 28 samples.

Results

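The comparison set RNA of wild-type (WT) stem cells labelled hair germ against RNA of WT stem cells labelled bulge, both from mouse hair follicles and both sequenced by SHERRY2, a protocol in which a transposase tags RNA/cDNA hybrids. The members were chosen by label: the 2 WT hair germ SHERRY2 libraries and the 2 WT bulge SHERRY2 libraries, which make 4 of the 28 samples of the series. All 4 came from mice at postnatal day 69, sorted by flow cytometry, in a study of the RNA demethylase Alkbh5, which takes off m6A methylation and was deleted in the conditional knockout (cKO) mice. The WT mice carry no further genotype in the labels, and the Cre driver and the sorting markers were not given in the sources used here. The bulge libraries were made from 200 ng of RNA and the hair germ libraries from 40 ng. For reference the text also uses the 4 SHERRY2 libraries of cKO mice, with 2 per compartment, and the 2 WT hair germ libraries made by SMART-seq, which amplifies full-length cDNA.

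The bulge is the upper, slow-cycling stem cell niche at the base of the resting hair follicle, and the hair germ is the small cluster of cells below it, next to the dermal papilla. When a new growth phase starts, the hair germ divides first, under Wnt signals and with BMP signals falling, and the bulge follows. Cd34, a surface sialomucin, and the keratin Krt15 mark the bulge, while P-cadherin (Cdh3) and the Wnt effector Lef1 are used to mark the hair germ. Lgr5, a receptor for R-spondins, is found in both.

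Depth was unequal between the compartments. The bulge libraries held 21187283 and 14676168 reads on genes (mouse 1 and mouse 2), and the hair germ libraries 1513001 and 488648. Levels are given as CPM, reads scaled to an equal total in every library, over the 45496 gene symbols found in both tables. Across the tested genes the log2 levels of both bulge mice correlated at 0.983 and those of both hair germ mice at 0.748, as a description across genes. Both compartments come from separately made tables, so compartment, table, RNA input and depth cannot be told apart in any difference below. The labels number the mice within each group and say nothing more of how replicates were taken, so each p-value measures the spread between these libraries. The mice also differed in sex. Xist, the RNA of the inactive X chromosome, stood at 1454 and 6.20 CPM in the bulge and at 315 and 219 in the hair germ, and Ddx3y, a Y-linked gene, at 0.293 and 129 CPM in the bulge and at 0 in both hair germ libraries (limma, adjusted p = 0.146).

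Reads also fell on genes that these cells should not use. Of 337 shared olfactory and vomeronasal receptor genes, which belong to sensory neurons, 298 and 288 had a read in the hair germ libraries, against 10 and 7 in the much deeper bulge libraries. Their median level was 0.846 and 2.01 CPM per kb of exon in the hair germ, and 0 in the bulge. Carried over to every gene by its exonic length, this level predicts that background makes up 10.4% of the reads of hair germ mouse 1 and 24.7% of those of mouse 2. Each hair germ value below is therefore read against this predicted background. Of 8125 genes of at least 1 kb of exon with no read in any bulge library, 0.554% reached 4 times the prediction in both hair germ libraries.

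**Figure D1:**
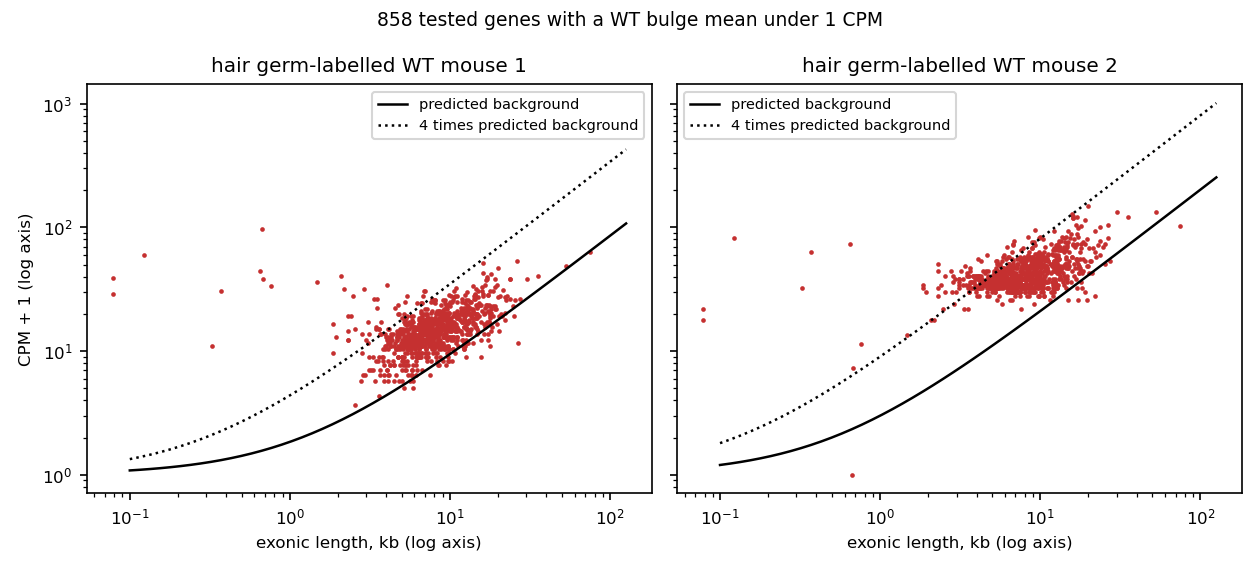
Level in each library labelled WT hair germ (CPM + 1, log axis) against exonic length (kb, log axis) for the tested genes whose WT bulge mean was under 1 CPM; each point is a gene, the solid line is the background predicted from receptor genes and the dotted line 4 times that. Most points follow the slope of the lines, in mouse 1 and in mouse 2.

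The marker genes went against the hair germ label in part. Cd34, on chromosome 1 (194621127 to 194643587 in the bulge table, which names no build), stood at 236 and 242 CPM in the bulge and at 21.4 and 52.1 CPM in the hair germ. The groups did not overlap, and Cd34 was lower in the hair germ libraries with a log2 difference of -2.80 ± 0.38 (SE, limma, adjusted p = 0.000816). Cdh3 (chromosome 8, 107237523 to 107283929) stood at 204 and 172 CPM in the bulge but at 36.9 and 37.5 in the hair germ, a log2 difference of -2.30 ± 0.28 (limma, adjusted p = 0.000537). The hair germ marker was thus 5.05 times lower in the libraries that carry its compartment's name.

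Lgr5 (chromosome 10, 115286216 to 115423685) stood at 60.9 and 68.7 CPM in the bulge and at 16.8 and 25.0 in the hair germ (log2 difference -1.61 ± 0.35, limma, adjusted p = 0.00654). Its hair germ values were 1.93 and 1.21 times the predicted background, so they rest near it, and the call was lost when either bulge library was left out. Lef1 (chromosome 3, 130904120 to 131018005) was below the 20 CPM minimum in both groups and was not tested. It stood at 3.22 and 2.71 CPM in the bulge and at 12.7 and 25.0 in the hair germ, where 7.44 and 17.6 CPM of background are predicted. Krt15 (chromosome 11, 100022584 to 100026754) was abundant in all 4 libraries, at 7704 and 8338 CPM in the bulge and 5506 and 4160 in the hair germ, and the difference did not pass the test (log2 -0.74, 95% interval -2.74 to 1.25).

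In the other libraries labelled hair germ the markers differed again. WT hair germ by SMART-seq held 149 and 193 CPM of Cdh3, 184 and 141 of Lgr5, and 446 and 96.3 of Cd34. The 2 SHERRY2 hair germ libraries of cKO mice held 118 and 34.6 CPM of Cdh3, 90.5 and 10.9 of Lgr5 and 72.6 and 7.001 of Lef1, so cKO mouse 1 carried more of all 3 than either WT library. SMART-seq levels are CPM over that table's own genes and no test was made across protocols. The 2 WT SHERRY2 libraries are called hair germ below by their label only.

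**Figure D2:**
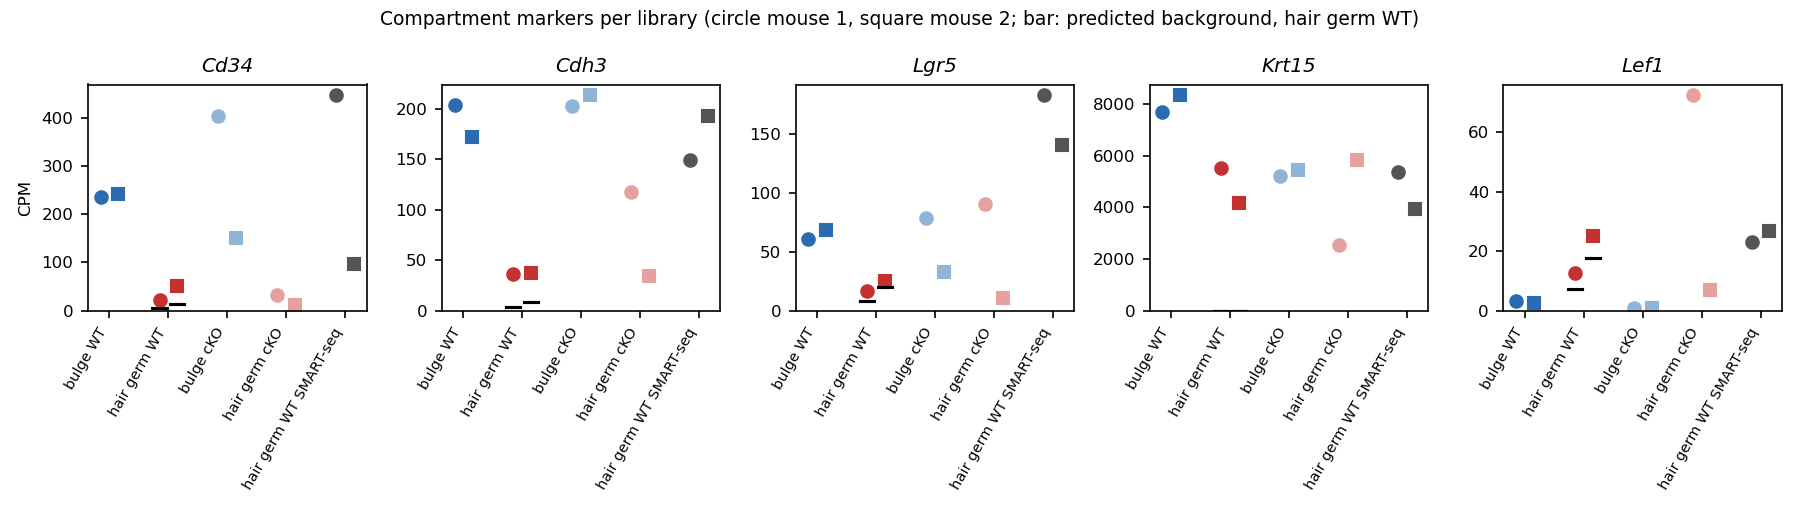
CPM of 5 compartment markers in each library; circles are mouse 1, squares mouse 2, and black bars the background predicted for the WT hair germ SHERRY2 libraries. Cd34, Cdh3 and Lgr5 are lower in both WT hair germ libraries than in both WT bulge libraries, and Lef1 and Lgr5 lie close to the bars.

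Across all genes, 10501 had a mean of at least 20 CPM in either compartment. With limma on log2(CPM + 1), 2162 were higher in the hair germ libraries and 1480 lower at an adjusted p under 0.05, which is 20.6% and 14.1% of those tested and 34.7% together. Of the 2162, 850 had a bulge mean under 1 CPM. Such genes reached the 20 CPM minimum only through the hair germ libraries, so their direction was set by the filter. The 20.6% includes them. Log2 differences below are on this log2(CPM + 1) scale, which makes them too small for low genes. The median difference over all tested genes was 0.13. Genes called higher were long, with a median of 7.41 kb of exon against 4.44 kb for those called lower and 4.93 kb for the rest. Only 558 of the 2162 reached 4 times the predicted background in both hair germ libraries, against 755 of the 1480 called lower. Of all 10501 tested genes 5188 reached it, so the lower genes did so about as often as all genes and the higher ones less often. Among the 5188, 10.8% were higher and 14.6% lower. With the background subtracted, 543 genes (5.17%) were higher and 1091 (10.4%) lower.

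Scaling by TMM, which sets the libraries level over most of the genes it is given, used all 45496 shared symbols. It moved the median of all tested genes by -1.08 and gave 1323 higher and 3031 lower. Of these calls 30.4% were higher in place of 59.4%. Such a shift works against every higher call and favours lower ones. TMM over the tested genes only, an added setting, moved the median by -0.17. That setting kept 357 of the 558 higher genes at 4 times background or more, and TMM over all symbols kept 93. Below, TMM means the scaling over all symbols unless said. Leaving out a bulge library left far fewer calls than leaving out a hair germ library. Without a bulge library the spread within groups comes from the hair germ pair alone. The SD of the log2 difference between mice was 0.95 for the hair germ pair and 0.39 for the bulge pair. A call lost without a bulge library therefore does not by itself show that it depended on that bulge mouse. A total of 12 of the 558 and 125 of the 755 kept their call under TMM, with the background subtracted and without each library in turn. Directions below hold relative to the library total, and where TMM, background subtraction or leaving out 1 library ended the call of a named gene, at least 1 of the settings that ended it is given.

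**Figure D3:**
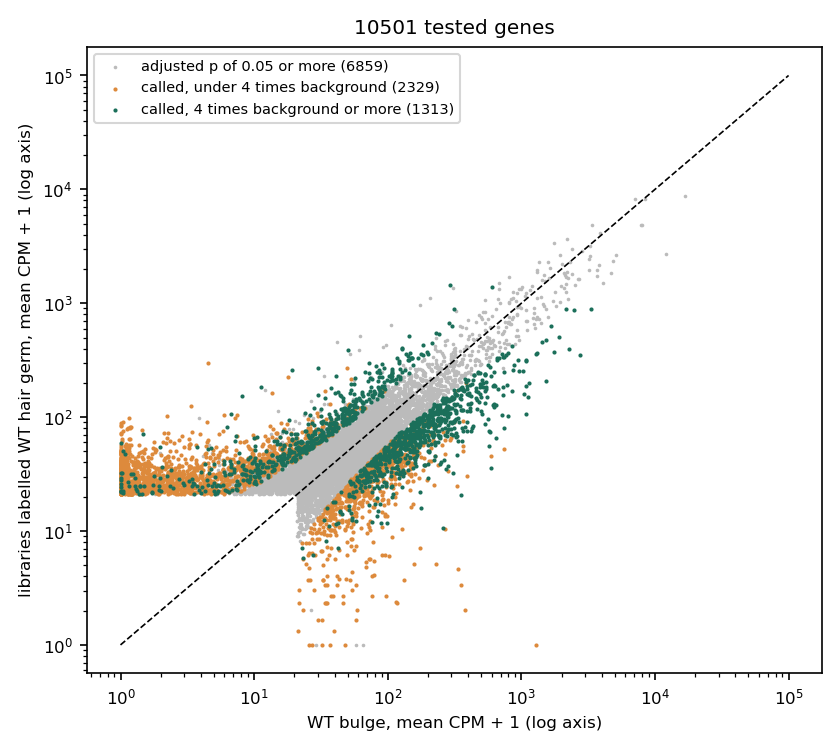
Mean CPM + 1 of each tested gene in the 2 libraries labelled WT hair germ (vertical, log axis) against the 2 WT bulge libraries (horizontal, log axis); green points passed the test at 4 times the predicted background or more in both hair germ libraries, orange points passed it under that level, grey points did not pass. The genes near 0 in the bulge form a horizontal orange band, and the called genes with high bulge levels lie below the diagonal.

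The 12 largest positive differences belonged to genes of very long transcripts: Hmcn2, Ttn, Zan, Ntrk3, Muc16, Hydin, Lrp2, Dnah10, Cdh23, Ank2, Dnah9 and Sspo, with log2 differences of 5.80 to 6.33. These encode, among others, the muscle protein titin (Ttn), axonemal dyneins of cilia (Dnah9, Dnah10) and a sperm protein (Zan). Their exons span 15.9 to 117 kb. With bulge levels of 6.49 CPM or less, all 12 reached the 20 CPM minimum only through the hair germ libraries. Ttn stood at 6.49 and 0.57 CPM in the bulge and 177 and 417 in the hair germ. Hmcn2 had no read in the bulge and stood at 50.9 and 123 CPM in the hair germ, at least 483-fold higher when 3 reads per bulge library are taken as the limit. All 12 were under 4 times the predicted background in both hair germ libraries, at 1.32 to 4.00 times, and by SMART-seq none exceeded 4.58 CPM. Ttn lost its call without hair germ mouse 2.

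Above the background the higher genes were fewer and of other kinds. The 12 picked after their values were seen, as the largest differences left at 4 times background or more, were led by Mir6236, Col5a3 and Trpm8, and 11 of them had bulge levels under 1.4 CPM. Of these 11, only Mir6236, Col5a3 and Col11a2, a fibrillar collagen, kept their call without either bulge library. Mroh2a was the most abundant of the 12, at 10.4 and 9.98 CPM in the bulge and 113 and 254 in the hair germ (log2 3.93 ± 0.39, limma, adjusted p = 0.000208). With bulge levels of 10.4 CPM or less, all 12 reached the 20 CPM minimum only through the hair germ libraries. Their direction was therefore set by the filter. Gapdh, the glycolytic enzyme, stood at 52.7 and 46.1 CPM in the bulge and 375 and 398 in the hair germ, and was also named after its values were seen. Its many processed pseudogenes can share its reads, so the Gapdh value is uncertain.

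The 12 largest negative differences, which did not overlap between groups, were Jund, Egr2, Cdc42bpg, Srsf1, Fam91a1, Fzd6, Galnt2, Lmbrd2, Rpl24, Epg5, Celf1 and Cep170b. Jund, an AP-1 transcription factor, stood at 1555 and 1038 CPM in the bulge and had no read in either hair germ library, at least 314-fold lower with 3 reads per library as the limit. Srsf1, a splicing factor, stood at 301 and 400 CPM in the bulge and at 2.68 and 2.08 in the hair germ. Celf1, an RNA-binding protein, stood at 159 and 157 CPM in the bulge and at 4.02 and 4.17 in the hair germ.

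Of these 12 genes, 8 lay below what background alone predicts in both hair germ libraries, and Fam91a1, Galnt2, Lmbrd2 and Epg5 lost their call without either bulge library. Of all 1480 lower genes 32 were under the prediction in both WT hair germ libraries, and 22 in all 4 SHERRY2 hair germ libraries, Srsf1, Celf1 and Galnt2 among them. WT hair germ by SMART-seq held 195 and 250 CPM of Srsf1, 167 and 170 of Celf1 and 106 and 101 of Galnt2. Rpl24, a ribosomal protein with processed copies, was low there too, at 2.50 and 1.47 CPM. The part that the making of the hair germ table has in these values was not tested. Jund has an antisense neighbour, Gm11175, and Srsf1 has Gm11508, and whether counting used strand was not given in the sources used here.

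Among lower genes that stayed well above background, matrix, membrane and RNA-binding genes led. Postn, a matricellular protein, stood at 1224 and 954 CPM in the bulge and 81.1 and 129 in the hair germ (log2 -3.39 ± 0.33, limma, adjusted p = 0.000177). Cav1, the coat protein of caveolae, stood at 681 and 619 against 72.4 and 56.3 CPM. Hnrnpa1, an RNA-binding protein with many pseudogenes, stood at 563 and 627 against 26.1 and 43.8 CPM. Glul, glutamine synthetase, Aqp3, a water and glycerol channel, and Srsf5, another splicing factor, had log2 differences of -3.34, -3.28 and -3.21. All 6 kept their call under TMM, with the background subtracted and without each library in turn.

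Of 25 bulge stem cell genes listed, 21 were tested, 9 were lower, 1 was higher, and their median was -0.80 beside 0.13 for all tested genes. In bulk samples, fewer cells of a type and less RNA per cell cannot be told apart. Cd200, an immune-regulatory surface protein, stood at 87.3 and 106 CPM in the bulge and 22.1 and 29.2 in the hair germ. Sox9, a transcription factor of hair follicle stem cells, stood at 86.9 and 129 against 47.6 and 31.3 CPM. Krt24 and Angptl7 fell by 2.11 and 2.56 on the log2 scale, and Vdr, the vitamin D receptor, by 1.36.

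Several other bulge genes did not pass the test. Col17a1, a hemidesmosome collagen, and the nuclear factors Nfib and Nfix had differences of -0.93, -0.17 and -0.39, and Lhx2 and Nfatc1, both regulators of stem cell quiescence, of -0.80 and -0.39. The exception in direction was Tcf7l2, a Tcf/Lef factor, at 29.2 and 30.6 CPM in the bulge and 57.6 and 77.1 in the hair germ, whose call was lost under TMM, with the background subtracted, without either bulge library and without hair germ mouse 2. Krt24 lost its call without either bulge library, Sox9 without bulge mouse 2 or hair germ mouse 2, Vdr without any library but hair germ mouse 1, and Cd200 without bulge mouse 2. Cd34 and Postn kept theirs throughout, and Angptl7 lost its call only when levels were rescaled to the full total after background subtraction. Summed over the listed genes, the level was 18300 and 17536 CPM in the bulge and 10937 and 9013 in the hair germ.

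Of 26 hair germ and lineage genes listed, 16 were tested, 4 were lower and 2 higher, with a median of -0.25. Cdh3 and Lgr5 were lower, as above. Sostdc1, a secreted antagonist of Wnt and BMP, stood at 242 and 265 CPM in the bulge and 88.5 and 66.7 in the hair germ, and Bmpr1a, a BMP receptor, at 175 and 173 against 79.1 and 70.9. The Bmpr1a call was lost without either bulge library. Foxn1, a transcription factor of hair and epidermal differentiation, was higher (log2 2.62 ± 0.45, limma, adjusted p = 0.0026). It stood at 6.30 and 7.202 CPM in the bulge and 36.9 and 58.4 in the hair germ. Foxn1 thus reached the 20 CPM minimum only through the hair germ libraries, so its direction was set by the filter. Foxn1 is 1 of the 12 higher genes at 4 times background or more that kept their call in all of these settings. The settings share that filter, so keeping the call does not test the direction.

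Trps1, a GATA-type repressor, was called higher at 21.4 and 50.02 CPM, but these are 1.89 and 1.86 times the predicted background and the call was lost when it was subtracted. Cxcl14, a chemokine, at 601 and 484 CPM in the bulge and 352 and 427 in the hair germ, and Gata3, at 336 and 383 against 852 and 386, did not pass the test. Shh, Msx1, Msx2, Hoxc13 and Dlx2, regulators of early hair growth, were below the 20 CPM minimum.

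Genes of the Wnt pathway were mostly lower where they were called. Counts in this list and those below stand beside 20.6% higher and 14.1% lower among all tested genes. Of 33 ligands and receptors listed, 25 were tested, 8 were lower and 2 higher, with a median of -0.38. Fzd7, a Frizzled receptor, stood at 111 and 184 CPM in the bulge and 36.9 and 33.4 in the hair germ, and Fzd1 at 71.7 and 76.9 against 18.1 and 20.8. Lgr4 and Lgr6, relatives of Lgr5, fell by 1.57 and 1.41 on the log2 scale. The higher calls were Fzd4 and Porcn, and both were lost when the background was subtracted. Fzd1 and Lgr4 lost their call without either bulge library, Lgr6 without bulge mouse 1, and Fzd7 without bulge mouse 2 or either hair germ library.

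Of 21 Wnt targets and Tcf/Lef factors, 14 were tested, 5 were lower and 2 higher (median -0.16). Ctnnb1, which encodes β-catenin, stood at 588 and 633 CPM in the bulge and at 149 and 104 in the hair germ (log2 -2.28 ± 0.30, limma, adjusted p = 0.000792). The feedback inhibitors Axin2, at 145 and 138 against 58.3 and 41.7 CPM, and Apcdd1, at 323 and 307 against 101 and 79.2 CPM, were lower as well. Axin2 lost its call without either bulge library, and Ctnnb1 and Apcdd1 kept theirs in each setting named above. Of 15 secreted Wnt inhibitors, 6 were tested and 3 of these, Dkk3, Sostdc1 and Sfrp1, were lower, while Kremen2 was higher, a call lost under TMM, with the background subtracted and without any 1 of the 4 libraries. Dkk3 stood at 118 and 120 CPM in the bulge and 30.8 and 37.5 in the hair germ. The Dkk3 call was lost without bulge mouse 2 and that of Sfrp1 without bulge mouse 1.

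BMP genes showed no higher call, where 20.6% of all tested genes were higher and 14.1% lower. Of 26 listed, 16 were tested and 7 were lower, with a median of -0.79. Id1, a direct BMP target, stood at 109 and 132 CPM in the bulge and 38.2 and 18.8 in the hair germ (log2 -2.12 ± 0.36, limma, adjusted p = 0.00242). Twsg1, an extracellular BMP modulator, stood at 217 and 201 against 65.7 and 39.6 CPM. Bmp4, a ligand, at 46.8 and 44.0 against 79.8 and 62.5 CPM, did not pass the test. In the TGF-beta list, 5 of 20 tested genes were lower and none higher, among them Tgfbi, a secreted target, at 1348 and 1276 CPM in the bulge and 411 and 321 in the hair germ. Tgfbi lost its call without either bulge library, while Id1 and Twsg1 kept theirs throughout.

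Of 11 tested FGF genes 5 were lower, with the receptor Fgfr3 at 357 and 308 CPM in the bulge and 114 and 79.2 in the hair germ, and 1, Etv1, was higher at 1.19 and 2.42 times background, a call lost with the background subtracted and without either bulge library. Of 8 tested Hedgehog genes 4 were lower (Boc, Gas1, Smo and Cdon), and all 4 calls were lost without either bulge library. Of 14 tested Notch genes 4 were lower, led by the ligand Jag1 at 219 and 265 against 48.3 and 83.4 CPM, and 2 were higher, Notch4 and Mfng, which lost their calls when the background was subtracted. The EGF receptor family was split, with 4 of 14 tested genes higher and 4 lower and a median of 0.77. That median became -0.29 under TMM and -0.75 with a minimum of 50 CPM, was 0.20 without bulge mouse 2 and 0.32 without hair germ mouse 1, and was 0.61 with TMM over the tested genes. Hbegf, a ligand, was the one of the 4 higher genes at 4 times background or more, at 123 and 108 CPM in the bulge and 433 and 227 in the hair germ, and its call was lost with TMM, with the background subtracted and without either bulge library. Lrig1, an inhibitor of EGF receptors and a stem cell marker, stood at 301 and 304 CPM in the bulge and 101 and 79.2 in the hair germ and kept its call.

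**Figure D4:**
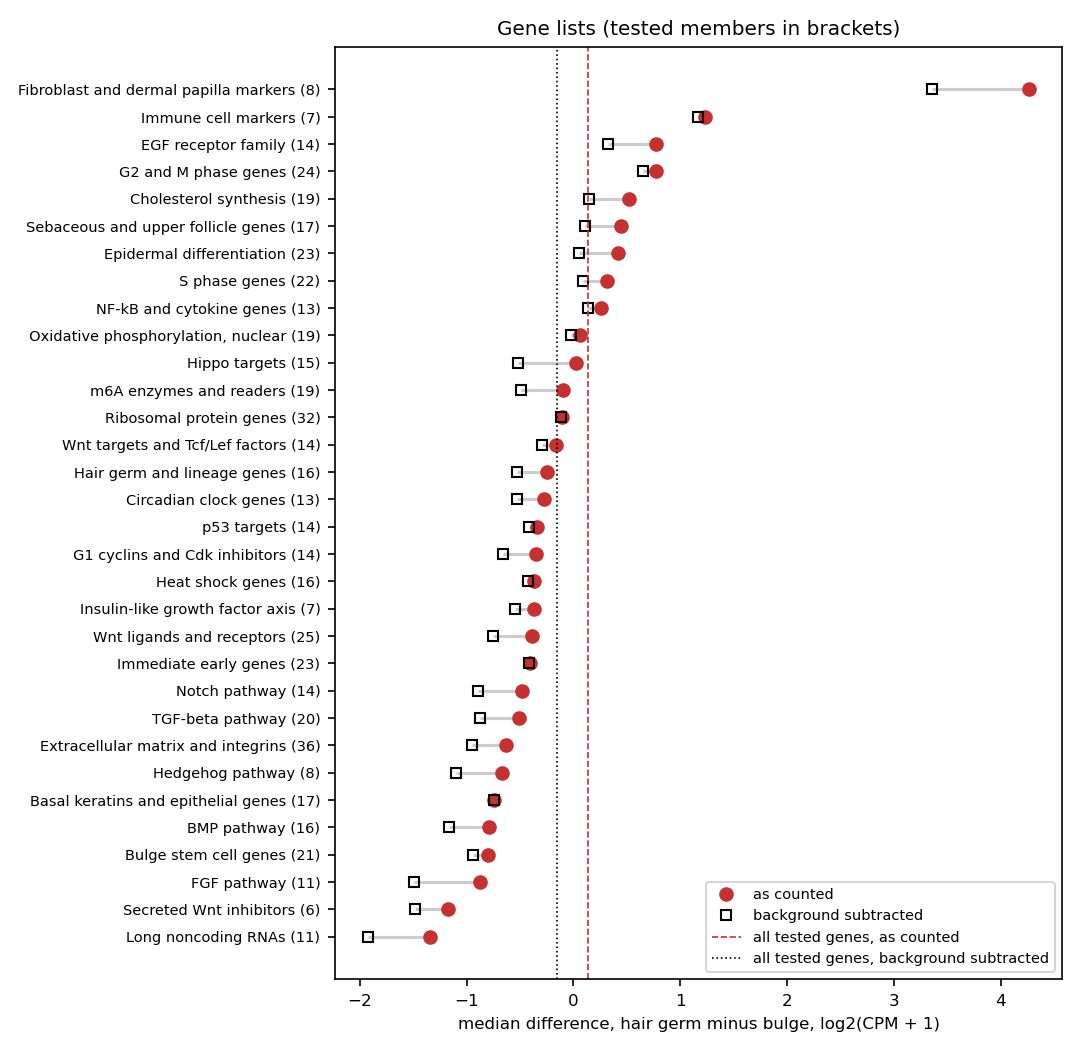
Median difference on the log2(CPM + 1) scale, hair germ minus bulge, for each gene list with at least 5 tested genes; circles are values as counted, squares values after background subtraction, and vertical lines the medians of all tested genes in each. Lists of the Wnt, BMP, FGF and bulge genes lie left of both lines, and the fibroblast marker list lies farthest right.

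Of 25 genes of the G2 and M phases, 24 were tested, 3 were higher and none lower. That is a smaller share of higher calls than the 20.6% of all tested genes. All 3 were among the 21 list members at 4 times background or more, and 10.8% of all genes at that level were higher. By that measure the share was not smaller. The median of the 24 was 0.77. It became -0.32 under TMM, 0.12 without hair germ mouse 2 and 1.42 without hair germ mouse 1, and was 0.60 with TMM over the tested genes. Cenpf, a kinetochore protein, stood at 39.7 and 39.9 CPM in the bulge and 168 and 290 in the hair germ (log2 2.44 ± 0.32, limma, adjusted p = 0.000701). Mki67, the proliferation antigen, stood at 138 and 114 against 248 and 552 CPM, and Cenpe, a mitotic kinesin, at 21.3 and 24.5 against 55.0 and 163. Both hair germ mice were above both bulge mice for each, and all 3 calls were lost under TMM but kept with TMM over the tested genes. Those of Mki67 and Cenpe were also lost with the background subtracted, and that of Mki67 without bulge mouse 2 or hair germ mouse 2.

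Top2a, which untangles DNA, at 132 and 125 against 169 and 400 CPM, missed the threshold (limma, adjusted p = 0.0568). The summed level of the listed genes was 1015 and 961 CPM in the bulge and 1228 and 2897 in the hair germ, so that hair germ mouse 2, the shallower library, held most. In the bulge of cKO mice it was 1550 and 2844, so a bulge library reached the same sum.

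Of 22 tested S phase genes 5 were higher, among them Cdc6, Ccne1, Chaf1b and Cdc45, which is near the share of all tested genes, and 1, Pcna, the replication clamp, was lower at 139 and 136 CPM in the bulge and 44.9 and 68.8 in the hair germ. The calls of Cdc6, Ccne1, Chaf1b and Cdc45 were lost with the background subtracted, and these and that of Pcna were lost without either bulge library. Cdkn1a, the p21 inhibitor of cyclin-dependent kinases, was higher at 260 and 224 against 607 and 467 CPM, and Cdkn1b (p27) was lower at 103 and 187 against 36.2 and 50.02 CPM. The Cdkn1a call was lost under TMM, with the background subtracted and without either bulge library, and the Cdkn1b call without bulge mouse 2 or either hair germ library. Of 14 tested p53 target genes 2 were higher and 4 lower, led by Trp53inp1 at 744 and 393 against 89.1 and 60.4 CPM, whose call was lost without hair germ mouse 2.

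The main keratins were abundant in both compartments. Krt5 stood at 17710 and 15873 CPM in the bulge and 8627 and 8823 in the hair germ, and Krt14 at 8422 and 8535 against 7460 and 8936. Neither passed the test, and the 95% interval of the log2 difference ran from -3.75 to 1.87 for Krt5 and from -2.37 to 2.26 for Krt14. Trp63, the master regulator of basal epithelium, stood at 1300 and 940 CPM in the bulge and 176 and 125 in the hair germ (log2 -2.89 ± 0.34, limma, adjusted p = 0.000415), and E-cadherin (Cdh1) at 1027 and 1017 against 298 and 204. Of 17 tested genes of this list 5 were lower and 1, Krt7, was higher, a call lost without either bulge library.

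Epidermal differentiation genes separated the hair germ mice from each other. Their summed level was 12789 and 12697 CPM in the bulge, but 28823 CPM in hair germ mouse 1 and 5690 in mouse 2. Lor, a cornified envelope protein, stood at 279 and 69.0 CPM in the bulge and at 1893 and 18.8 in the hair germ, and Krt10, a suprabasal keratin, at 3122 and 3439 against 4366 and 844. Of 23 tested genes 2 were higher (Tgm1 and Flg) and 2 lower (Dsg1a and Calml3), and all 4 calls were lost with the background subtracted. The list's median of 0.41 became -0.89 without hair germ mouse 1 and -0.70 under TMM.

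Adhesion and matrix genes were lower more often than higher: 9 of 36 tested were lower and 3 higher, with a median of -0.63. Among all tested genes 14.1% were lower and 20.6% higher. Itgb1, the β1 integrin, stood at 392 and 388 CPM in the bulge and 103 and 75.0 in the hair germ. Col4a6, a basement membrane collagen, stood at 167 and 139 against 18.1 and 14.6 CPM, the latter being 2.68 and 0.912 times background, and Thbs1, a matricellular protein, at 2893 and 1666 against 263 and 525. The Thbs1 call was lost without hair germ mouse 1. Among Hippo genes 5 of 15 tested were lower and 1, Tead4, was higher, a call lost with the background subtracted. The median of this list was 0.02, and -0.52 with the background subtracted. Yap1, the coactivator, stood at 327 and 314 against 105 and 85.5 CPM and its target Ccn2 at 721 and 403 against 114 and 77.1. The Ccn2 call was lost without hair germ mouse 2.

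Immediate early genes, quickly induced when cells are handled or stimulated, were high in both compartments. Fos stood at 8551 and 5709 CPM in the bulge and 9957 and 6476 in the hair germ, and Jun at 4112 and 2667 against 5950 and 3773. Neither passed the test, and 5 of 23 tested genes of the list were lower, Jund and Egr2 among them. Of 32 tested ribosomal protein genes 2, Rps6 and Rpl5, were lower and none was higher, with a median of -0.11. Rps6 kept its call, and Rpl5 lost it without either bulge library or hair germ mouse 2. Of 11 tested long noncoding RNAs 7 were lower and 2 higher, with Neat1, the RNA of paraspeckles, at 1544 and 2297 CPM in the bulge and 554 and 452 in the hair germ. Neat1 lost its call without any 1 of the 4 libraries.

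Alkbh5 itself stood at 102 and 96.3 CPM in the bulge and 63.7 and 62.5 in the hair germ and did not pass the test (limma, adjusted p = 0.0915). Of 19 tested m6A enzymes and readers 3 were lower (Ythdf3, Wtap and Hnrnpa2b1) and 4 higher, 1 of these 4 at 4 times background or more. Ythdf3, a reader, stood at 114 and 140 CPM in the bulge and 34.2 and 37.5 in the hair germ. Of the higher calls 3 were the readers Igf2bp1, Igf2bp2 and Igf2bp3, and Igf2bp2 stood at 17.4 and 41.7 CPM in the hair germ, which is 2.78 and 2.81 times background. Igf2bp1 had no read in the bulge. It reached the 20 CPM minimum only through the hair germ libraries, so its direction was set by the filter. The calls of all 3 Igf2bp genes were lost without either bulge library, and that of Igf2bp3 also with the background subtracted. Zc3h13 and Hnrnpa2b1 lost their calls under TMM and with the background subtracted, Wtap without either bulge library and Ythdf3 without bulge mouse 2.

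Smaller sets covered metabolism and other lineages, and their counts stand beside 20.6% higher and 14.1% lower among all tested genes. Of 19 tested cholesterol synthesis genes 2 were higher and 2 lower, with Hmgcs1, an early enzyme of the pathway, at 448 and 378 CPM in the bulge and 159 and 77.1 in the hair germ. Of 13 tested clock genes 1 was lower, the repressor Nr1d2 at 206 and 215 against 47.6 and 33.4 CPM, and 2 were higher, Per2 and Per3. Hmgcs1 and Nr1d2 kept their calls throughout, and those of Per2 and Per3 were lost under TMM. Of 17 tested sebaceous and upper follicle genes 3 were higher (Far2, Cidea and Scd3) and 2 lower, and the 3 were higher in hair germ mouse 1 than in mouse 2, where Scd3, a desaturase, stood at 104 CPM against 8.34 in mouse 2. All 3 higher calls were lost with the background subtracted and without hair germ mouse 1. Of 13 tested NF-kB and cytokine genes 3 were higher (Relb, Il6 and Nfkbie), each lost under TMM, with the background subtracted and without either bulge library. Of 19 tested nuclear oxidative phosphorylation genes 1, Sdha, was lower, a call lost without either bulge library, and of 16 tested heat shock genes 3 were lower. Of 7 tested genes of the insulin-like growth factor axis, the binding proteins Igfbp3 and Igfbp4 were lower, and both calls were lost without either bulge library or hair germ mouse 2, that of Igfbp3 also under TMM and with the background subtracted. Of 27 hair shaft genes only 2 could be tested and neither passed.

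Summed levels of markers of other cell types were higher in the hair germ libraries. All 15 fibroblast and dermal papilla markers together held 42.6 and 34.2 CPM in the bulge and 192 and 542 in the hair germ, of which 82.5 and 195 CPM are predicted background. Of 8 tested 7 were higher, and 1 of the 8 reached 4 times background in both libraries. These 7 reached the 20 CPM minimum only through the hair germ libraries, so their direction was set by the filter and the count carries no weight. Col1a1, the main fibroblast collagen, stood at 5.32 and 2.21 CPM in the bulge and 28.1 and 77.1 in the hair germ, and Pdgfra at 0.537 and 0.713 against 23.5 and 54.2. Col1a1 lost its call without hair germ mouse 2.

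The 23 immune markers summed to 346 and 292 CPM in the bulge and 539.5 and 1023 in the hair germ, with 58.0 and 138 predicted. H2-Aa, an MHC class II chain, stood at 51.1 and 41.8 against 74.4 and 163 CPM, and 4 of 7 tested markers were higher, of which Ptprc, Laptm5 and Coro1a reached the minimum only through the hair germ. All 4 calls were lost with the background subtracted. The 12 endothelial and mural markers summed to 12.6 and 7.27 CPM in the bulge and 111 and 311 in the hair germ, with 57.3 and 136 predicted, and all 4 tested were higher, none of them at 4 times background. They too entered the test only through the hair germ libraries. The melanocyte list had 1 of 4 tested genes higher (Kit) and the Schwann cell and muscle list 1 of 2 (Myh4), both tested through the hair germ libraries alone. Both calls were lost without either bulge library, and that of Kit also with the background subtracted. No blood or Merkel cell marker reached the 20 CPM minimum. The part of these cell types in the differences above was not tested.

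**Figure D5:**
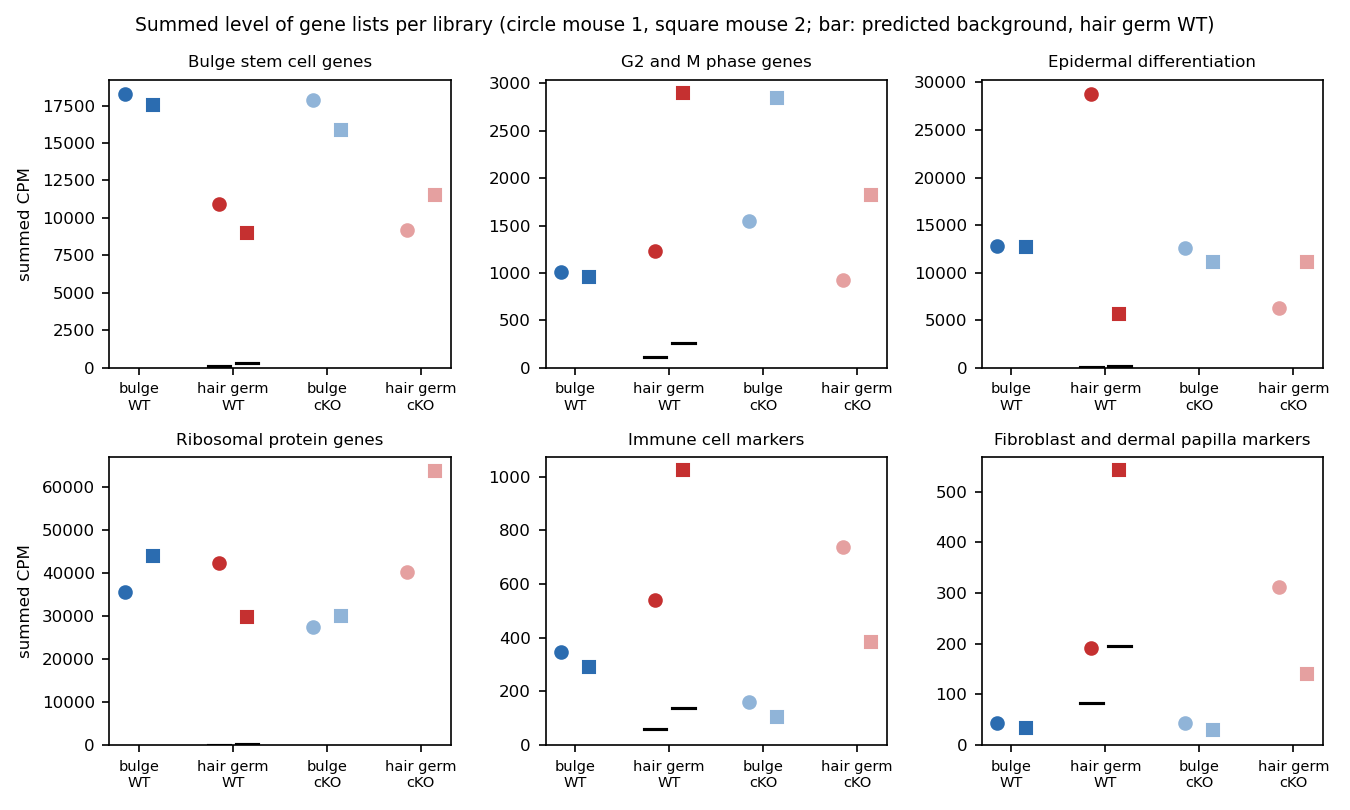
Summed CPM of 6 gene lists in each SHERRY2 library; circles are mouse 1, squares mouse 2, and black bars the background predicted for the WT hair germ libraries. The bulge gene sum is lower in both WT hair germ libraries, the differentiation sum is high in hair germ mouse 1, and the G2 and M phase, immune and fibroblast sums are highest among WT libraries in hair germ mouse 2.

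The same contrast in cKO mice used other libraries of the same 2 tables, in which Alkbh5 was the targeted gene. Alkbh5 stood at 4.64 and 2.63 CPM in the cKO bulge and at 18.0 and 7.001 in the cKO hair germ, under every WT library. Of 9504 genes tested, 2961 (31.2%) were called, 1220 (12.8%) higher and 1741 (18.3%) lower in the cKO hair germ libraries. Of the 1480 genes lower in WT, 1466 were tested in cKO and 1070 were lower there too, while 2 were higher. Of the 558 genes higher in WT at 4 times background or more, 466 were tested in cKO and 236 were higher there too. Postn (log2 -3.94), Trp63 (-2.22) and Cd34 (-3.64) were lower in both genotypes, and Foxn1 (1.55) was higher in both, though the filter set its direction in WT. Cdh3 had -1.68 and Lgr5 -0.66 in cKO and neither passed the test there.

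A direct test of whether the compartment difference depended on genotype called none of 10501 genes with limma over all 8 SHERRY2 libraries, where the lowest adjusted p was 0.296 and 814 genes had an unadjusted p under 0.05. No other tool was run for this test. Under TMM the cKO contrast gave 398 higher and 4211 lower. Without cKO hair germ mouse 1 it gave 2000 higher and 3067 lower, and without cKO bulge mouse 1 or mouse 2 it gave 402 and 542 or 393 and 495. Without cKO hair germ mouse 2 it gave 2104 and 2215.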

How the data were processed

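Bulge read counts per gene and FPKM values were deposited by the authors for each library, with exonic gene sizes (the other values of that file) per the file headers. The FPKM were not used. For hair germ SHERRY2 the deposited table holds a normalized signal per library, with the authors' log2 fold change, Wald score and p-value for cKO against WT, which were not used. SMART-seq read counts per gene were also deposited by the authors. The submitters' processing notes name STAR, featureCounts, DESeq2, Trim Galore and FastQC, and the builds mm10 and GRCm38. Versions, annotation and strand setting were not given in the sources used here.

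Each hair germ column was divided by its smallest nonzero value. In every column 100% of values were then whole within 0.01 reads, and these were taken as reads. Tables were joined by symbol: 45496 symbols were shared, 36 of them with more than 1 ID, whose reads were summed, and 2639 bulge IDs without a symbol were left out. Shared symbols held 96.7 and 95.6% of WT bulge reads and 98.6 and 98.2% of WT hair germ reads. Mitochondrial genes, 1.94 and 1.78% of bulge reads, are not among the hair germ symbols.

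CPM were computed over the shared symbols. Genes with a mean of 20 CPM or more in either group were tested with limma 3.58.1 (trend, log2(CPM + 1), R 4.3.3), two-sided, Benjamini-Hochberg over all tested genes, without a block. The same fit was made for cKO. edgeR 4.0.16 and DESeq2 1.42.0 on the recovered reads were alternatives. Background per kb of exon is the median of 337 receptor genes. The scripts were tested on simulated reads with the same spread setting in both compartments and no background particular to the hair germ. That test checked the code only and does not bear on the calls made here. No value column lacked a sample. The members and 40 gene lists were chosen with earlier results of these data known. Named genes were the 5 markers, the 12 largest differences in each direction that passed the test without overlap (higher ones with 10 reads or more in each hair germ library, no clone names), and from each list up to 3 called genes per direction and the 2 most abundant others. Other list members were named to complete their groups. The class at 4 times background was added after seeing the data. The m6A libraries were not analysed here.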

Additional observations from a re-analysis of the deposited data

How the results depend on the processing

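For the WT contrast, 3642 genes were called (2162 higher, 1480 lower). The calls were 1603 in all and 478 higher with a minimum of 50 CPM, 11984 and 10213 with 5 CPM, and 8732, 7782 and 950 lower with no filter. TMM gave 1323 higher and 3031 lower, edgeR 1395 and 3267. Background subtraction gave 1634 in all and 543 higher, and with rescaling to the full total, an added setting, 1435, 622 and 813 lower. Leaving out 1 library gave 541 to 4267 in all, 269 to 2569 higher and 272 to 1698 lower, and the lone library was assumed to vary like the others. The share of calls that were higher was 59.4%, and 30.4% with TMM, 29.9% with edgeR, 51.9% with TMM over the tested genes (added), 33.2% with the background subtracted and 43.3% with rescaling. Mouse numbers are shared across compartments by name only: deviations of same-numbered libraries correlated at -0.0139, and the replicate block gave 3363 calls, 1987 higher and 1376 lower. For cKO, where all alternatives were added after seeing the data, 2961 genes were called (1220 and 1741). TMM gave 4609 (398 and 4211), edgeR 4607 (413 and 4194), and leaving out 1 library 888 to 5067 in all, 393 to 2104 higher and 495 to 3067 lower. Among named genes, Per3 and Relb, called higher, changed sign to -0.158 and -0.0891 with TMM and -0.0986 and -0.0639 with edgeR. Of 32 list medians, 9 changed sign with TMM and 2 with the background subtracted. The cause was not tested, except that filters change which genes enter and leaving out a library leaves 3. The total without mitochondrial genes could not be run, since the hair germ table lists 0 of them. Depth limits the hair germ values: 10 reads are 6.70 CPM in mouse 1 and 20.8 in mouse 2.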
